A study of Mus musculus with 10 samples.

Results

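The genes described here are 10 members of the p53 pathway of growth arrest and cell death, chosen by symbol: Trp53, Mdm2, Cdkn1a, Gadd45a, Gadd45b, Btg2, Ccng1, Sesn2, Bbc3 and Pmaip1. All 10 were found among the 23234 gene symbols of the deposited mouse expression table. RNA had been sequenced from cells of the ovarian follicle, in 10 libraries that fall into 5 groups. Cumulus cells, the granulosa cells around the oocyte, were taken from C57BL/6 mice at 2 ages, 10 months with 3 libraries and 2 months with 3 libraries. Mural granulosa cells, the layer on the inside of the follicle wall, were taken at 2 months from the same strain, with 2 libraries. Cumulus-oocyte complexes, in which the oocyte is still enclosed by its cumulus cells, came from PMSG-primed mice aged 3 weeks, with 1 library of strain BDF1 (a first-generation hybrid of C57BL/6 and DBA/2) and 1 of strain DBA/2. No allele or transgene is named for any group. The protocols name, for all groups alike, a basic culture medium holding milrinone, a phosphodiesterase inhibitor. They also name eCG-primed mice as the source of the mural cells. eCG and PMSG are names of the same gonadotropin. The sources used here do not say whether donors of cumulus cells were primed. No label ties a replicate to its own animal, so p-values reflect the spread between these libraries alone, and that spread may be technical.

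p53, the product of Trp53, is a transcription factor that is held at a low level by the ubiquitin ligase Mdm2, which is itself a p53 target. Damage to DNA and other stresses release p53 from this control, mostly by changing the protein and not the Trp53 transcript, so the transcripts of its targets are commonly read as its output. Some targets stop the cell cycle (Cdkn1a, Gadd45a, Btg2), others restrain growth and metabolism (Sesn2), and others trigger cell death (Bbc3, Pmaip1). Several have further inducers: Gadd45b is also induced through NF-kB, Btg2 by growth factor signals, and Sesn2 and Gadd45a by the stress factor ATF4. Granulosa cells divide while the follicle grows and leave the cell cycle when they luteinise, and apoptosis of granulosa cells is a hallmark of follicle atresia.

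Levels are given in FPKM, fragments scaled to transcript length and to the mapped fragments of the library, so levels of different genes are per length. Sums of FPKM ranged from 470377 to 603460 per library. The sources used here give no read depth, so the precision of low values is unknown. Replicates of a group had a Spearman correlation of 0.909 to 0.955 across genes, which are not independent replicates. The summed FPKM of 9 mural granulosa markers was 6719 and 9755 in mural libraries and 748 to 2139 in cumulus libraries, in the direction of the labels. That of 9 cumulus markers did not separate the cell types, at 1748 to 2344 in cumulus libraries and 2837 and 2424 in mural libraries. Summed FPKM of 15 oocyte markers was 3612 and 3565 in the complexes and 22.7 and 165 in mural libraries. In cumulus libraries it ranged from 3.71, with 11 of the 15 listed at 0 (2 months, replicate 2), to 1277 (2 months, replicate 3). Replicate 3 at 10 months stood apart from the other 2 in several marker lists, with the highest sum of the cumulus libraries for mural granulosa (2139), surface epithelium (127) and erythroid markers (136).

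The sequences just before the start sites of 4 members are shown, picked after the member values were known. Among the 10-month libraries described further on, replicate 2 was lowest for Cdkn1a and Gadd45a and highest for Btg2 and Gadd45b. A link between the sequences and these orders was not tested. The sequences are from RefSeq on build GRCm38.p6 and not on mm9, the build of the expression table. A promoter window was found for 9 of the 10 members, with 12 windows in all. Each line gives the 250 bases before an annotated start site, 5′ to 3′ on the gene's strand. These are Cdkn1a (chr17:29090729-29090978, plus strand, the first of 2 start sites), Gadd45a (chr6:67037408-67037657, minus strand), Btg2 (chr1:134079156-134079405, minus strand) and Gadd45b (chr10:80929841-80930090, plus strand). Capitals mark a full p53 element in Cdkn1a, a single p53 half-site in Gadd45a, a cyclic AMP response element (CRE) in Btg2 and a TATA box in Gadd45b.
Cdkn1a: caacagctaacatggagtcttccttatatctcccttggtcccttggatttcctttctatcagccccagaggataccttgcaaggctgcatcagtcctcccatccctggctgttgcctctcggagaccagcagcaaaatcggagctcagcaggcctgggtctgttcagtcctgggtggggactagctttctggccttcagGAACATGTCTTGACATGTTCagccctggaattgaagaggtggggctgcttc
Gadd45a: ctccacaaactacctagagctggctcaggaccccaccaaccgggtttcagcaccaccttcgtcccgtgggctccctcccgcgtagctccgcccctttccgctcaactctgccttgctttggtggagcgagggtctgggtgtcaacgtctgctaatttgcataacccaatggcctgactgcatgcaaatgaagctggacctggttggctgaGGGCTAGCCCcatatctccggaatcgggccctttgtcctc
Btg2: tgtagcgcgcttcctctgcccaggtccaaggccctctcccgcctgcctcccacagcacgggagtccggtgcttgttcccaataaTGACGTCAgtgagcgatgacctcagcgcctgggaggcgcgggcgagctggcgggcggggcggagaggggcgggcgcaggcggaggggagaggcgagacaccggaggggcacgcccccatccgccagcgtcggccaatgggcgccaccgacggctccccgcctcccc
Gadd45b: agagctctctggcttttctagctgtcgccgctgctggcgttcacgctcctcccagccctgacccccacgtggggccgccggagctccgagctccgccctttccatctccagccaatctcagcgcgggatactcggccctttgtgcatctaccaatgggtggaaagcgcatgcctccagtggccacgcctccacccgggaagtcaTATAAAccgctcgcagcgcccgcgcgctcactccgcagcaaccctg

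Motifs were searched on both strands in windows that run from 250 bases before to 50 bases after each start site. A full p53 element was taken as a pair of p53 half-sites 0 to 13 bases apart with at most 1 mismatch outside the half-site cores. Of 32851 RefSeq windows, 0.417% held such an element, and among the windows of the 9 members only the first of Cdkn1a did, at position -51 from that start site, where it overlaps a half-site match. The second start site of Cdkn1a lies downstream (chr17:29093519-29093768 are the 250 bases before it), and its window held none of the motifs. A half-site without mismatch was found in windows of Trp53, Cdkn1a, Mdm2, Gadd45a and Ccng1, against 8.36% of all windows. The letters TGACGTCA of the CRE were found in the window of Btg2 alone among the members (1.79% of all windows), and the TATA box letters TATAAA in those of Gadd45b and Trp53 (13.6%). An NF-kB site was found in windows of Trp53 and Bbc3 (4.51%). The AP-1 letters TGANTCA (7.81%), the ATF4 letters TGATGCAA (0.895%) and the serum response CArG box (1.63%) were found in no window of the 9 members. Such a match is a description of letters and not of binding, which was not measured.

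Cumulus cells at 10 months were first compared with those at 2 months. Every one of the 9 members that could be tested had a higher mean on the log2(FPKM + 1) scale at 10 months, against 46.5% of all 12412 genes tested. In addition 6 of them (Cdkn1a, Gadd45a, Mdm2, Gadd45b, Sesn2 and Bbc3) were higher in all 3 libraries at 10 months than in any at 2 months. Over all genes, 8.93% were higher without overlap. None of the 9 members passed the threshold of an adjusted p of 0.05 in limma's moderated test, and 0 of the 12412 genes did, so the background share called is 0% and the smallest adjusted p of any gene was 0.0869. At an unadjusted p under 0.05 stood 6 of the 9 members, all higher, against 959 genes higher (7.73%) and 768 lower (6.19%) over the whole table. The median log2 difference was 1.01 over the 9 members and -0.02 over all genes. In bulk RNA, fewer cells of a type and less RNA per cell cannot be told apart, and this holds for each difference given here.

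Trp53 was at 101, 85.0 and 75.5 FPKM in the 3 libraries at 2 months and at 111, 100.4 and 88.1 at 10 months. The groups overlapped, and the transcript of p53 itself differed by a log2 of 0.20 ± 0.16 (SE; adjusted p = 0.629 by limma, n = 3 against 3). Its inhibitor Mdm2 was at 18.8, 18.9 and 22.4 FPKM at 2 months and at 29.6, 25.4 and 31.3 at 10 months. The Mdm2 libraries at 10 months all lay above those at 2 months, by a log2 of 0.50 ± 0.13, with an adjusted p of 0.227 in limma. Reads of the processed pseudogene Trp53-ps may be counted with Trp53, so its level is uncertain to that extent.

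Cdkn1a, which encodes the CDK inhibitor p21, had the largest difference of the members with age. Its FPKM was 6.25, 8.01 and 9.39 at 2 months and 69.4, 20.2 and 92.1 at 10 months. All 10-month libraries were above all 2-month libraries, but the lowest of them was far below the other 2. The means were 7.88 ± 1.58 and 60.6 ± 36.7 FPKM (SD, 3 libraries each), a ratio of 7.68. On the log2 scale the difference was 2.56 ± 0.52 (SE), with an adjusted p of 0.196 in limma's test. In order of p over the 12412 genes, Cdkn1a stood at rank 78.

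Gadd45a, whose product binds the replication clamp PCNA and cyclin-dependent kinase complexes and takes part in the G2 checkpoint, followed a like order of libraries. It was at 6.19, 7.51 and 9.84 FPKM at 2 months and at 42.9, 17.5 and 41.4 at 10 months. Replicate 2 was again the lowest of the 10-month libraries and still above all at 2 months. The difference was a log2 of 1.90 ± 0.35 (SE; ratio of means 4.32, adjusted p = 0.160 by limma). The antisense gene E230016M11Rik overlaps Gadd45a and was at 1.14, 1.86 and 2.04 FPKM at 2 months and at 8.73, 3.38 and 6.98 at 10 months. The sources used here do not give strandedness, so reads of the pair cannot be told apart. Cdkn1a and Sesn2 also overlap annotated transcripts of other genes, which were not among the symbols of the table.

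Replicate 2 decided whether these genes passed. Without it, 280 genes were called between the ages, and Cdkn1a (log2 difference 3.20, adjusted p = 0.00751) and Gadd45a (2.31, adjusted p = 0.00928) were the only members among them in limma's test. With weights for the quality of each library, 69 genes were called and the same 2 members passed, with adjusted p-values of 0.0486 for Cdkn1a and 0.0467 for Gadd45a. Without replicate 3, which stood apart in its markers, 3 genes and 0 members were called, and Cdkn1a differed by 2.14. Without replicate 1, 9 genes and 0 members were called, and leaving out a 2-month library gave 3 to 5 genes and 0 members.

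Gadd45b, a stress sensor that activates the MTK1 kinase upstream of p38 and JNK, was at 12.1, 16.97 and 20.997 FPKM at 2 months and at 27.1, 55.5 and 29.2 at 10 months. The groups did not overlap, and here replicate 2 was the highest of the 10-month libraries. The difference was a log2 of 1.07 ± 0.30 (SE), with an adjusted p of 0.238 in limma. Btg2, an antiproliferative protein that recruits the CCR4-NOT deadenylase, was at 31.7, 84.3 and 68.5 FPKM at 2 months and at 64.2, 156 and 117 at 10 months. The lowest 10-month library lay below the 2 highest at 2 months, so the groups overlapped, and replicate 2 was the highest in both. Btg2 differed by a log2 of 0.88 ± 0.42 (adjusted p = 0.401 by limma).

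Ccng1 encodes cyclin G1, which brings the phosphatase PP2A to Mdm2. It was at 13.7, 19.2 and 13.7 FPKM at 2 months and at 17.5, 16.3 and 18.7 at 10 months. The ranges overlapped and the difference of 0.18 ± 0.19 (log2, SE) was within its error, and its sign turned with library weights (-0.02).

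Sesn2 encodes a leucine sensor that restrains the growth kinase mTORC1. It was at 4.83, 4.82 and 7.67 FPKM at 2 months and at 41.9, 8.16 and 10.2 at 10 months. The groups did not overlap, but 1 library, replicate 1, was 5.14 times the lowest 10-month library. The log2 difference was 1.30 ± 0.54 (SE; adjusted p = 0.349 by limma). Without replicate 1 it was 0.61 (adjusted p = 0.494), so the size of the Sesn2 difference rests on that library.

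Bbc3 (PUMA) and Pmaip1 (NOXA) encode BH3-only proteins that neutralise the survival proteins of the BCL2 family. Bbc3 was low, at 1.56, 0.701 and 2.34 FPKM at 2 months and at 5.76, 3.39 and 3.02 at 10 months. All 3 libraries at 10 months were above those at 2 months, with a log2 difference of 1.01 ± 0.31 and an adjusted p of 0.252 in limma. Pmaip1 had the lowest level of the 10 genes in every cumulus library, listed at 0 in replicate 1 and at 0.338 and 0.195 FPKM in the others at 2 months, and at 0.278, 0.297 and 1.13 FPKM at 10 months. Its mean was under the minimum of 1 FPKM, so it is the 1 member that was not tested, and the groups overlapped.

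**Figure D1:**
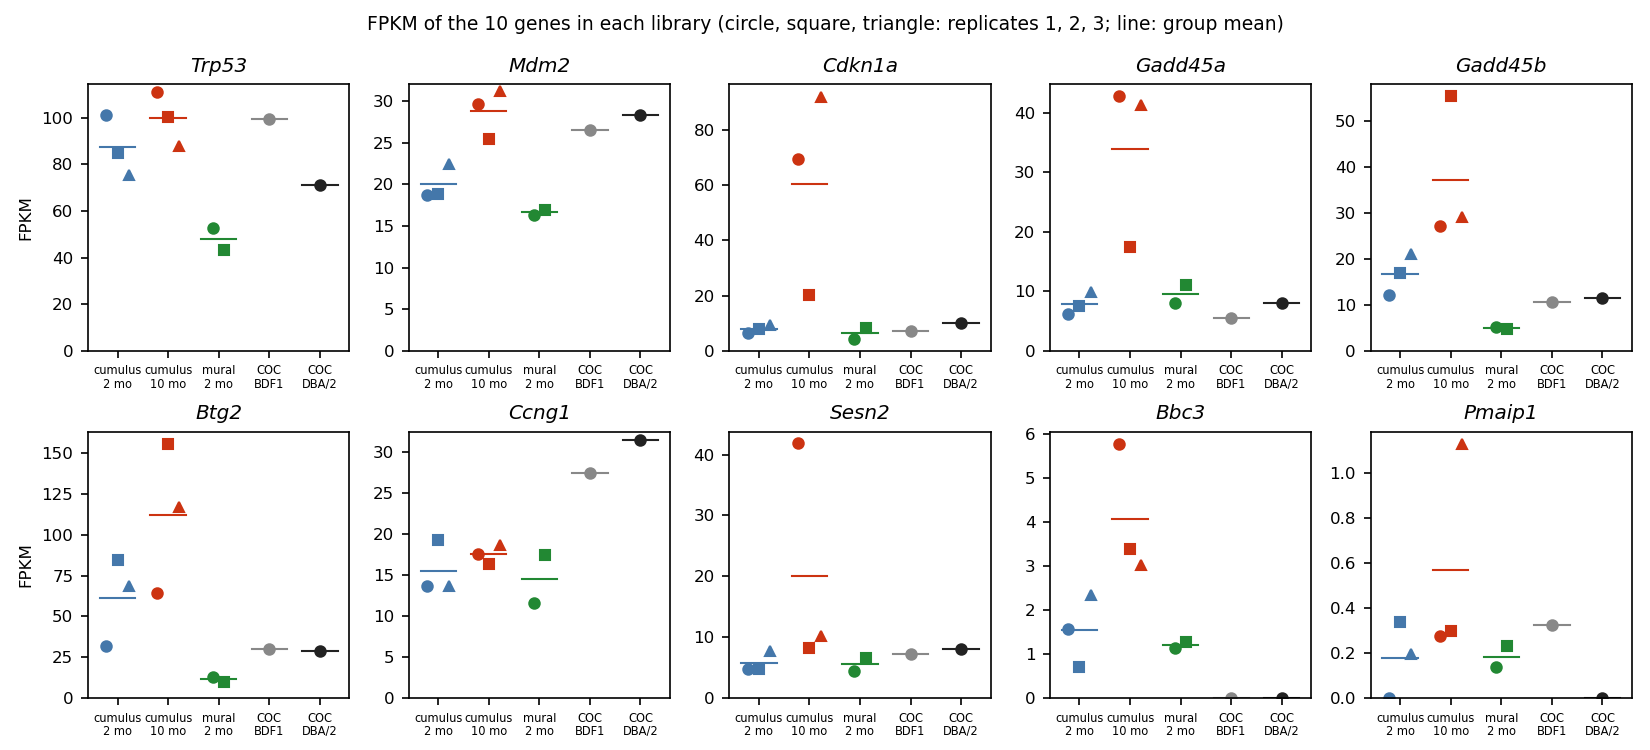
FPKM (y axis, linear, own scale per gene) of the 10 genes in each library, by group (x axis), with circles, squares and triangles for replicates 1, 2 and 3 and a line for the group mean. Cdkn1a and Gadd45a at 10 months have replicate 2 lowest (20.2 and 17.5 FPKM), Gadd45b and Btg2 have it highest (55.5 and 156 FPKM), and Sesn2 has replicate 1 alone at 41.9 FPKM.

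The members therefore did not share 1 order of libraries at 10 months. Taken against the 2-month mean on the log2 scale, replicate 2 was the lowest of the 3 libraries for Cdkn1a (1.27 against 3.00 and 3.41), Gadd45a (1.08 against 2.33 and 2.28), Mdm2, Ccng1 and Sesn2. For Gadd45b it was the highest (1.71 against 0.70 and 0.80), as for Btg2 (1.44 against 0.17 and 1.02). Replicate 1 was highest for Sesn2 (2.69 against 0.46 and 0.76) and for Bbc3 (1.47 against 0.85 and 0.72). For Pmaip1 the highest was replicate 3. The replicates carry numbers but no further label, so this is a description of 3 libraries.

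**Figure D2:**
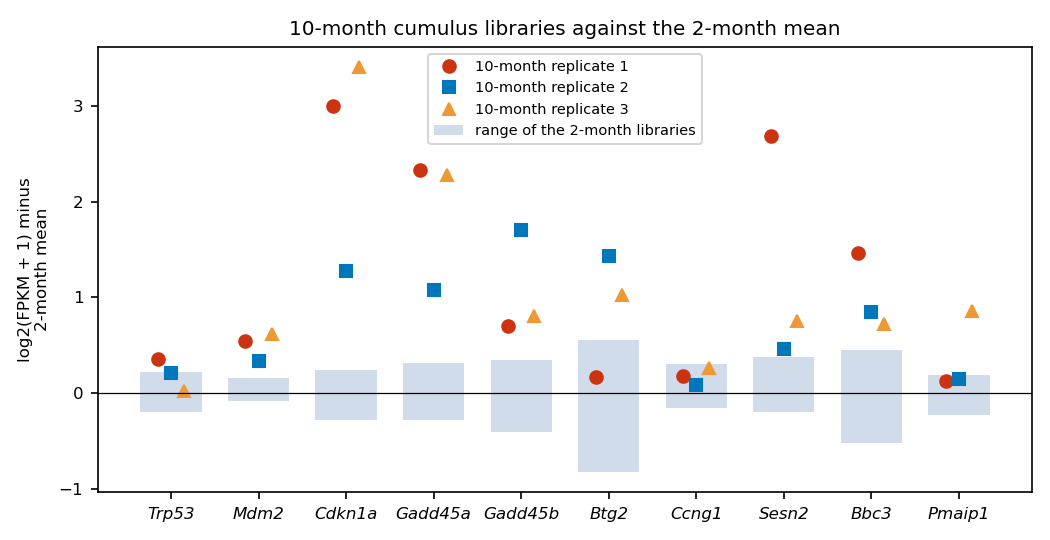
Difference of log2(FPKM + 1) from the 2-month mean (y axis) of each gene (x axis) in the 3 cumulus libraries at 10 months (symbols), with the range of the 2-month libraries as a shaded bar. Replicate 2 lies lowest for Cdkn1a (1.27) and highest for Gadd45b (1.71) and Btg2 (1.44).

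Marker lists of other cells differed between the same libraries. All 9 tested immune markers had a log2 difference above 0 with age, against 46.5% of all genes, and 8 of them were higher without overlap, against 8.93%, with a summed FPKM of 6.39 to 8.74 at 2 months and 29.5, 72.5 and 102.5 at 10 months. Of the 13 immune markers, Ptprc and Tyrobp were listed at 0 in replicate 1 at 2 months, Csf1r, Tyrobp, Emr1 and Cd14 in replicate 2 and Aif1 in all 3, and at 10 months only Aif1 was, in replicate 1. Summed markers of theca and stroma were 30.6 to 35.2 against 57.8 to 138, and of endothelium 7.38 to 9.42 against 11.7 to 27.5. Those of surface epithelium were 27.0 to 35.2 against 59.5 to 127. Aldh1a1 alone gave 30.1, 77.1 and 78.9 FPKM of the theca and stroma sums in 10-month replicates 1, 2 and 3. Its 2-month range was 20.8 to 24.1. Of the 12 tested markers of that list, 8 were higher without overlap. Krt8 gave 50.1 FPKM of the epithelial sum in 10-month replicate 1, where Krt19, Upk1b, Upk3b and Msln were listed at 0. Epithelial medians of log2(FPKM + 1) were 0.22, 1.63 and 3.33 in replicates 1, 2 and 3, against 0 to 0.32 in 2-month libraries. Mural granulosa markers had 7 of 9 above 0, and 0 markers of any list passed the test. Their part in the age differences was not tested.

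The rest of the pathway was read from lists of genes by role. Of 14 tested p53 regulators and upstream kinases, 12 had a log2 difference below 0 with age and 2 above, with a median of -0.17, and 0 passed. After quantile normalisation 9 were below 0, and without 2-month replicate 3 the median was 0.02. The kinase Atm, which activates p53 after double-strand breaks, had a mean of 5.18 ± 0.58 FPKM in the 2-month and 3.59 ± 0.68 in the 10-month libraries (SD, n = 3; log2 difference -0.44, adjusted p = 0.323 by limma).

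Among 13 other tested p53 targets in arrest and repair, 7 were above 0 and 6 below (6 and 7 after quantile normalisation), with a median of 0.02, beside -0.02 over all genes. Those with the smallest p were higher: Sfn (14-3-3 sigma, a G2 arrest protein) had means of 0.520 ± 0.207 and 4.23 ± 2.02 FPKM at 2 and 10 months, and Phlda3 (an Akt repressor) at 3.66 ± 1.40 and 9.31 ± 2.28. Plk2, a kinase of the polo family, was at 7.24 ± 3.75 and 17.3 ± 4.83, and Zmat3, an RNA-binding p53 target, at 2.09 ± 0.32 and 3.47 ± 0.67. Their libraries did not overlap between the ages, and their adjusted p-values by limma were 0.192 to 0.276. Of the 13, these 4 were higher without overlap and 2 others were lower, against 8.93% and 8.88% of all genes. Without replicate 2 at 10 months Sfn passed (adjusted p = 0.0132).

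Of 11 other tested targets in cell death 7 lay above 0 and 4 below, with a median of 0.08, and of 11 in metabolism and secretion 6 and 5, with a median of 0.04. Trp53inp1, a stress-induced regulator of autophagy and p53, was at 2.02, 3.31 and 5.43 FPKM at 2 months and at 17.4, 5.40 and 22.7 at 10 months. As for Cdkn1a, replicate 2 was the lowest at 10 months, and it lay just under the highest 2-month library. Tigar, a brake on glycolysis that the table lists as 9630033F20Rik, was lower in all 10-month libraries than in any at 2 months. Its means were 8.65 ± 0.84 FPKM at 2 months and 5.30 ± 0.14 at 10 months (log2 difference -0.61, adjusted p = 0.197 by limma).

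All 10 tested relatives of the members (the GADD45, BTG, TOB, sestrin and cyclin G families) had a difference above 0 with age. Over all genes 46.5% did. The median of the 10 was 0.35, and 0 passed. Library weights left 8 of the 10 above 0. Among the 10, Btg4 was at 101 and 132 FPKM in the complexes, 0 to 36.1 in cumulus cells at 2 months and 3.78 to 12.98 at 10 months. It ordered the cumulus libraries as the summed oocyte markers did, and the part of oocyte RNA in its difference was not tested. Btg3 was at 0.00283, 6.35 and 6.21 FPKM at 10 months, so its difference rests on replicates 2 and 3. Btg1, the closest relative of Btg2, had means of 19.9 ± 7.1 and 37.7 ± 9.6 FPKM at 2 and 10 months, and Ccng2, the cyclin G paralog, of 29.9 ± 4.4 and 40.7 ± 2.1. Neither overlapped between the ages, and both had an adjusted p of 0.274 to 0.277 in limma. The 5 tested CDK inhibitors other than Cdkn1a had 2 differences above 0 and 3 below. The 2 above 0 were higher without overlap, against 8.93% of all genes, and 0 of the 5 were lower without overlap. These 2 were Cdkn1b, with means of 21.6 ± 1.0 and 25.6 ± 2.0 FPKM at 2 and 10 months, and Cdkn1c, with 1.70 ± 0.25 and 2.68 ± 0.23. Their adjusted p-values by limma were 0.559 and 0.403. Cdkn2c (p18) had means of 21.96 ± 7.54 and 12.1 ± 4.28 FPKM at 2 and 10 months, with overlap. The 10 tested BCL2 family genes split 5 and 5. Both the survival gene Mcl1 and the death gene Bcl2l11 were higher in every 10-month library. Means at 2 and 10 months were 59.1 ± 16.4 and 83.1 ± 1.2 FPKM for Mcl1, and 9.88 ± 0.31 and 12.6 ± 0.9 for Bcl2l11.

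Cell cycle genes that are lowered when p21 holds the cycle back stood on the other side of 0. All 23 tested had a difference below 0 with age, between -0.72 and -0.31 and with a median of -0.54, and this held under every scaling tried. Of the 23, 14 were lower in all 3 libraries at 10 months than in any at 2 months, against 8.88% of all genes lower without overlap, and 0 passed. Top2a, the DNA topoisomerase of dividing cells, was at 134, 148 and 124 FPKM at 2 months and at 78.3, 105 and 77.8 at 10 months. The mitotic kinase Plk1 was at 63.3, 52.4 and 51.8 and then at 35.4, 40.0 and 26.0. Both had an adjusted p of 0.213 in limma. Replicate 2, the lowest 10-month library for Cdkn1a, was the highest for both of these genes at 10 months. A link between Cdkn1a and the cell cycle genes was not tested. Without replicate 2 at 10 months 3 of the 23 passed, all lower. Over all genes 280 of 12451 were then called, and 234 of these were higher.

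Targets of other inducers of these members were read in the same way. All 12 tested genes of the ATF4 stress response, Sesn2 among them, had a difference above 0 with age (median 0.79, 8 without overlap), as did all 21 immediate early genes (median 1.15, 6 without overlap) and all 13 tested NF-kB targets (median 2.23, 12 without overlap). Over all genes 8.93% were higher without overlap. None of the listed genes passed. Leaving out replicate 2 at 10 months left 11 of 12, 17 of 21 and 13 of 13 above 0, and then 0, 3 and 6 of them passed, against 280 of 12451 genes. Library weights also left 17 of the 21 immediate early genes above 0. Atf4 itself was at 141, 209 and 223 FPKM at 2 months and at 428, 300.2 and 282 at 10 months, and Nupr1, a stress-induced chromatin protein, at 64.1, 69.7 and 91.0 and then at 453, 190.0 and 131. Chac1, a glutathione-degrading enzyme, was listed at 0 in 1 library and at 0.152 and 3.50 in the others at 2 months, and was at 66.4, 5.99 and 7.69 at 10 months. Replicate 1 was the highest 10-month library for all 3 genes, as it was for Sesn2.

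The median log2(FPKM + 1) of the 12 ATF4 response genes was 3.50 to 3.88 at 2 months and 5.28, 4.14 and 4.24 in replicates 1, 2 and 3 at 10 months, so replicate 1 was highest. For the 21 immediate early genes the median was 3.86, 5.45 and 5.89 at 2 months and 6.20, 6.81 and 6.60 at 10 months, so replicate 2 was highest, as for Gadd45b and Btg2. For the 15 NF-kB targets it was 3.18, 2.93 and 4.23 at 10 months, so replicate 2 was lowest, unlike for Gadd45b. What sets these orders was not tested. The early growth gene Myc, at 12.2 to 18.2 FPKM at 2 months and 72.7, 36.3 and 61.9 at 10 months, had replicate 2 lowest and not highest, as Cdkn1a and Gadd45a did. So had Relb, an NF-kB subunit and target, at 1.56 to 2.23 and then at 22.03, 6.83 and 22.8.

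**Figure D3:**
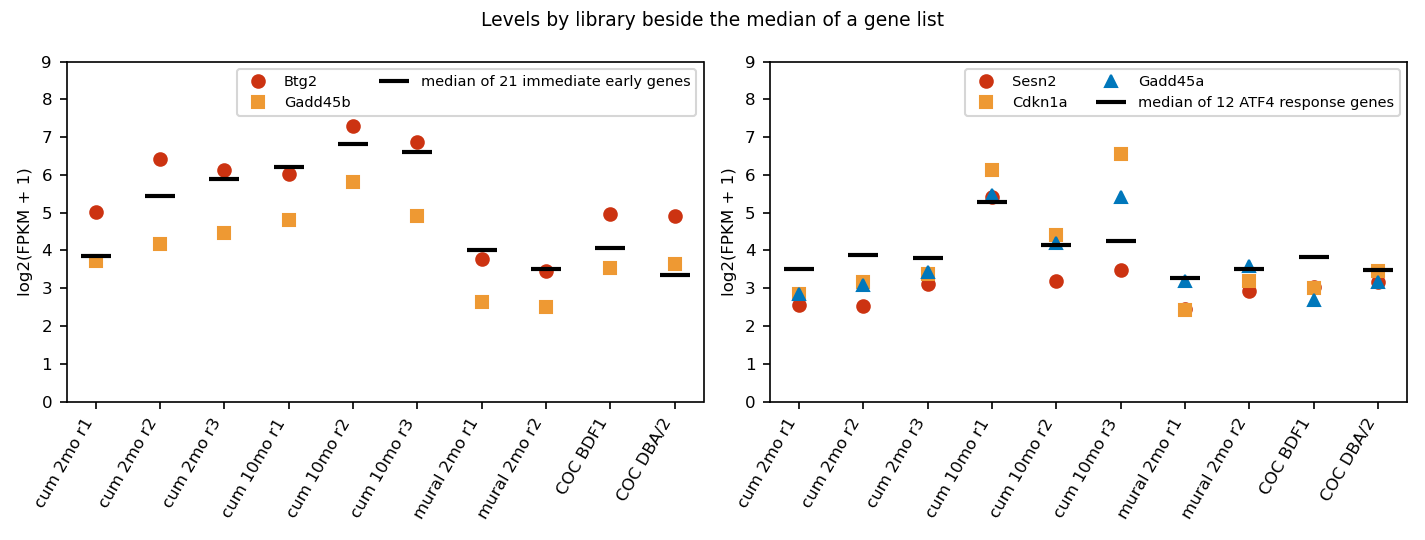
Level as log2(FPKM + 1) (y axis) in each library (x axis) of Btg2 and Gadd45b beside the median of 21 immediate early genes (left, black bar) and of Sesn2, Cdkn1a and Gadd45a beside the median of 12 ATF4 response genes, Sesn2 included (right). At 10 months the immediate early median is highest in replicate 2 (6.81) and the ATF4 median in replicate 1 (5.28).

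Mural granulosa cells were compared with cumulus cells at the same age of 2 months. The mural cells came from eCG-primed mice, and the sources used here do not say whether donors of cumulus cells were primed. Cell type and priming may therefore differ together here and cannot be told apart. Btg2, Gadd45b and Trp53 were lower in mural cells and passed the test, and the other 6 tested members did not. Of all 12412 genes 20.9% were called, 11.2% as lower and 9.69% as higher, and among the 1203 higher and 1396 lower calls the share of higher ones was 46.3%. That share was 64.0% when libraries were rescaled to an equal FPKM sum without Mir and Snor genes, which moved the median log2 difference of all genes from -0.08 to 0.11. The 3 members were called lower under that scaling too.

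Btg2 was at 12.7 and 10.0 FPKM in the mural libraries, under every cumulus library at 2 months (31.7, 84.3 and 68.5). The ratio of cumulus to mural means was 5.41, with a log2 difference of -2.24 ± 0.47 (SE; adjusted p = 0.0166 by limma, n = 2 against 3). Gadd45b was at 5.21 and 4.63 FPKM in mural cells against 12.1 to 20.997 in cumulus cells. It was also without overlap, with a difference of -1.55 ± 0.33 (adjusted p = 0.0176 by limma). Trp53 was at 52.5 and 43.1 FPKM in mural cells against 75.5 to 101 in cumulus cells, a difference of -0.85 ± 0.18 (adjusted p = 0.0161 by limma). None of the 3 calls was kept without cumulus replicate 2, mural replicate 1 or mural replicate 2, where adjusted p-values were 0.0507 to 0.138; with 1 mural library left, it was assumed to vary like the other groups.

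Mdm2 was at 16.4 and 16.9 FPKM in mural cells, under all 3 cumulus libraries, but did not pass (-0.25 ± 0.15, adjusted p = 0.258 by limma). With it, 4 of the 9 tested members were lower without overlap, against 32% of all genes. Cdkn1a was at 4.32 and 8.18 FPKM in mural cells and 6.25 to 9.39 in cumulus cells, and Gadd45a at 8.05 and 11.1 against 6.19 to 9.84. Both overlapped, as did Ccng1 (11.6 and 17.5 FPKM), Sesn2 (4.44 and 6.55) and Bbc3 (1.13 and 1.28). The differences of these 5 genes were between -0.33 and 0.26 on the log2 scale. The sign of Ccng1 and Sesn2 turned under rescaling to an equal FPKM sum, and each of the 5 except Gadd45a changed sign in at least 1 of the alternatives tried. Pmaip1 was at 0.137 and 0.231 FPKM in mural cells.

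Other genes of the pathway lay on both sides. Of 14 tested regulators and kinases 1 passed, the checkpoint kinase Chek1, with a mean of 5.98 ± 0.59 FPKM in mural and 13.98 ± 5.27 in 2-month cumulus libraries (adjusted p = 0.0305 by limma), and this call was lost under rescaling. Of 13 other targets in arrest and repair 3 passed. Zmat3 was higher in mural cells (4.11 ± 0.04 against 2.09 ± 0.32 FPKM), while Pcna, the replication clamp (117 ± 8 against 271 ± 10), and Gtse1, a G2 regulator that binds p53 (9.44 ± 1.99 against 19.9 ± 0.8), were lower. In cell death 1 of 11 was higher, the lysosomal protease Ctsd, and 1 lower, the membrane protein Perp, at 3.02 ± 1.59 against 13.9 ± 0.9 FPKM. In metabolism and secretion 3 of 11 were higher and 2 lower. Those higher included Ddit4, an mTORC1 inhibitor like Sesn2, with means of 78.8 ± 20.4 and 23.96 ± 8.22 FPKM, and the mitochondrial reductase Fdxr, at 133 ± 36 against 59.6 ± 14.8.

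Among the relatives of the members, Ccng2 (75.9 ± 9.3 against 29.9 ± 4.4 FPKM) and the cyclin I gene Ccni (152 ± 29 against 79.3 ± 4.9) were higher in mural cells and Gadd45g (12.9 ± 3.6 against 46.1 ± 7.7) was lower, of 10 tested. Gadd45g was thus lower in mural cells like Gadd45b, while Ccng2 was higher and Ccng1 did not pass. The CDK inhibitor Cdkn1b (p27) was the 1 of 5 that passed, at 36.7 ± 9.7 against 21.6 ± 1.0 FPKM. Of 10 BCL2 family genes 3 passed, all lower in mural cells: Mcl1 (31.6 ± 3.1 against 59.1 ± 16.4 FPKM), Bcl2l11 (5.83 ± 0.24 against 9.88 ± 0.31) and Bok (59.0 ± 4.9 against 135 ± 34).

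Of the 23 cell cycle genes 19 passed, all lower in mural cells, against 11.2% of all genes, with a median difference of -0.98 and 23 of 23 without overlap. Cdkn1a did not pass in the same comparison. The count of cell cycle genes was 18 to 23 under the other settings that kept all libraries. It was 12 without cumulus replicate 2 at 2 months, 7 without mural replicate 1 and 0 without mural replicate 2. Of 21 immediate early genes 10 passed, all lower, with a median of -2.03. Under rescaling 6 did, and leaving out 1 library gave 0 (mural replicate 2) to 14 (2-month cumulus replicate 1). NF-kB targets had 3 lower of 13, and the ATF4 response had 1 higher (Ddit4) and 4 lower of 12, which included Atf4 (91.3 ± 5.7 against 191 ± 44 FPKM). Mural libraries also had higher levels of markers listed for other cells, while the median difference over all genes was -0.08. The difference was above 0 for 11 of 12 tested theca and stroma markers, 6 of 6 endothelial and 9 of 9 immune markers. Of these 9, 5 and 2 passed as higher, against 9.69% of all genes. Summed FPKM of theca and stroma was 310 and 441 against 30.6 to 35.2, of endothelium 34.3 and 74.1 against 7.38 to 9.42, and of immune markers 25.6 and 61.1 against 6.39 to 8.74, and none of these markers was listed at 0 in a mural library. Within the theca and stroma sums of the mural libraries, Aldh1a1 was at 195 and 254 FPKM and Cyp17a1 at 61.5 and 63.0. Expression by mural cells themselves cannot be told apart from RNA of other cells. The part of these markers in the member differences was not tested.

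The same 2 mural libraries were also compared with cumulus cells at 10 months, where age and cell type differ together and cannot be told apart. Priming may differ there as well. This comparison shares its mural libraries with the one before and its cumulus libraries with the comparison of ages, so the 3 are not independent. Of the 9 tested members 6 were lower in mural cells and passed, and 0 were higher, against 14.7% of all genes called, 7.77% as lower and 6.94% as higher. The 6 were Gadd45b (log2 difference -2.62), Btg2 (-3.11), Trp53 (-1.05), Mdm2 (-0.75), Cdkn1a (-2.89) and Gadd45a (-1.63), with adjusted p-values by limma of 0.00740 to 0.0332. Cdkn1a, at 4.32 and 8.18 FPKM in mural cells and 20.2 to 92.1 in cumulus cells at 10 months, and Gadd45a, at 8.05 and 11.1 against 17.5 to 42.9, passed here and not against cumulus cells at 2 months. The difference between the 2 comparisons is the difference between the ages, which did not pass for either gene.

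Bbc3 (-1.16, adjusted p = 0.0592 by limma) and Sesn2 (-1.35, adjusted p = 0.163) did not pass, although both were without overlap. With them, 8 of 9 were lower without overlap, against 28.1% of all genes. Ccng1 overlapped. Rescaling to an equal FPKM sum kept 4 of the 6 calls and lost Mdm2 (adjusted p = 0.107) and Gadd45a (0.0617); it moved the share of higher calls over all genes from 47.2% to 71.8% and their median difference from -0.06 to 0.14. Without replicate 1 at 10 months 3 members passed (Trp53, Gadd45b and Btg2), and without either mural library 0 did. A fit of these 2 groups alone called the same 3 members.

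All 21 immediate early genes, all 13 NF-kB targets and all 23 cell cycle genes had a difference below 0 in mural cells against 10 months. Of these 16, 9 and 4 passed as lower, against 7.77% of all genes. Of the other p53 targets in arrest and repair 3 of 13 were lower: Pcna, Plk2 (4.40 ± 1.39 against 17.3 ± 4.8 FPKM) and Plk3 (0.883 ± 0.482 against 8.95 ± 2.87), both kinases of the polo family. Mcl1 and Bcl2l11 were again lower, with adjusted p-values by limma of 0.0127 and 0.00777. Counts for the remaining lists were 0 of 14 regulators, 1 higher and 1 lower of 11 in cell death, 4 higher and 1 lower of 11 in metabolism and secretion, 2 higher and 1 lower of 10 relatives, 0 of 5 CDK inhibitors and 1 higher and 5 lower of 12 ATF4 response genes.

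**Figure D4:**
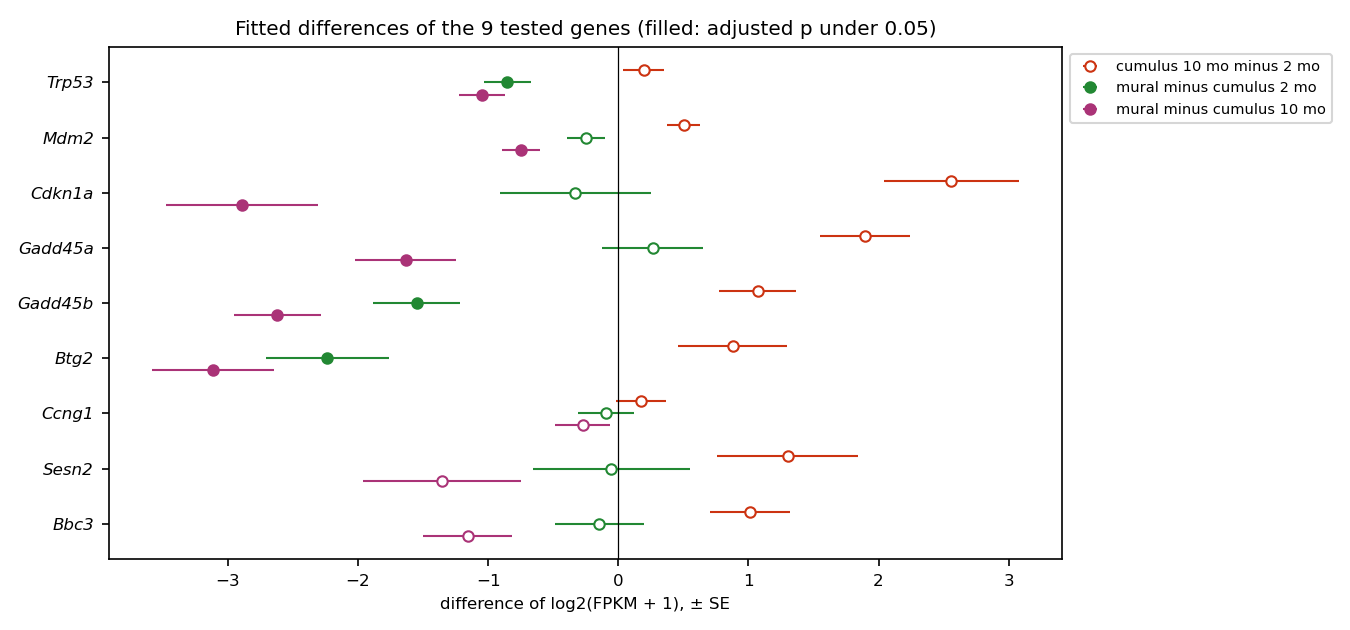
Fitted difference of log2(FPKM + 1) (x axis, bars give the SE) for the 9 tested members (y axis) in 3 comparisons that share libraries, with filled symbols for an adjusted p under 0.05. All 9 age differences are above 0 and open, and filled symbols are those of Trp53, Gadd45b and Btg2 for mural against both ages and of Mdm2, Cdkn1a and Gadd45a for mural against 10 months.

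**Figure D5:**
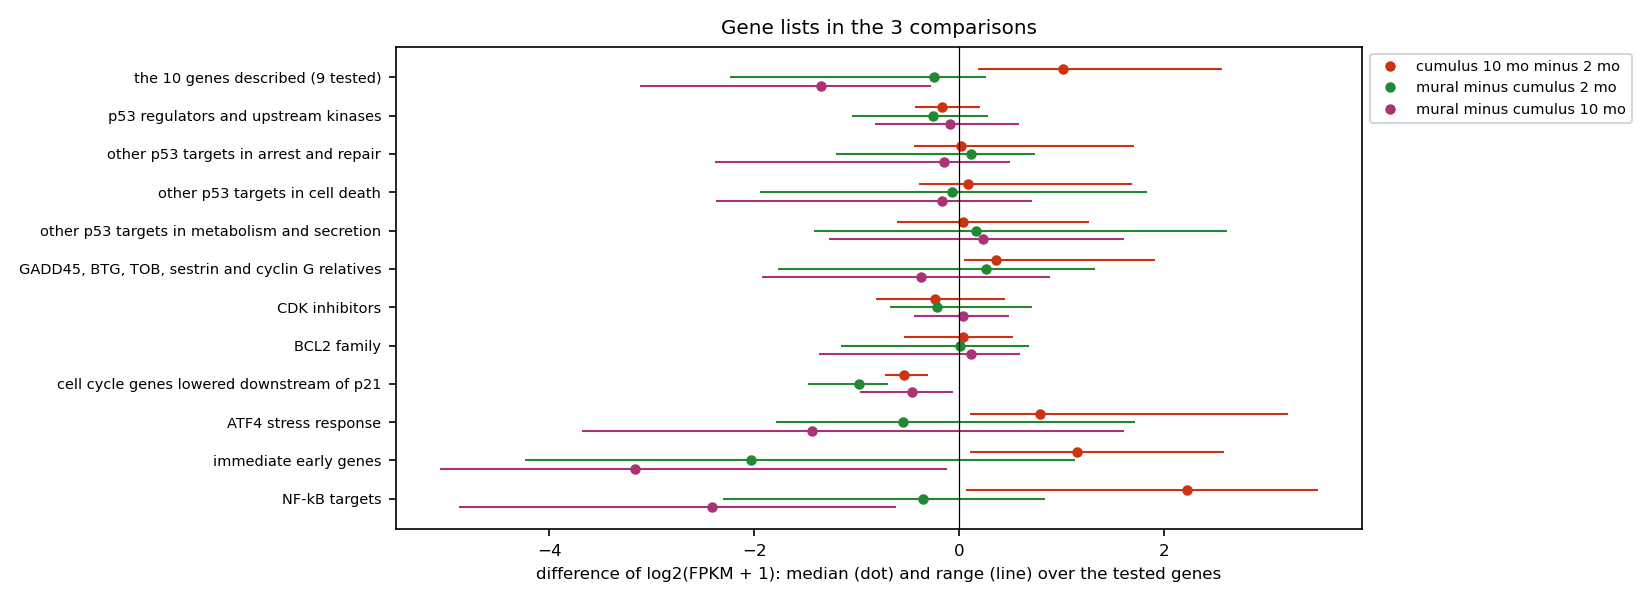
Median (dot) and range (line) of the difference of log2(FPKM + 1) (x axis) over the tested genes of each list (y axis) in the same 3 comparisons. Cell cycle genes lie below 0 in all 3 (medians -0.54, -0.98 and -0.46), while the described genes (1.01, -0.25 and -1.35) and the immediate early genes (1.15, -2.03 and -3.16) lie above 0 with age and below 0 in mural cells.

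The complexes had 1 library per strain, so their differences from cumulus cells at 2 months have no replicate check and no test. Strain, age, priming and the presence of the oocyte differ together there and cannot be told apart. Of 12454 genes 12.8% lay past a 2-fold difference in the same direction in both strains, 10.9% higher and 1.84% lower, and 0 of the 8 members above the minimum level did. Btg2 came closest, at 29.9 FPKM in BDF1 and 28.8 in DBA/2, just under the lowest cumulus library at 2 months (31.7), with log2 differences of -0.90 and -0.96 from the cumulus mean. Without that lowest library, or with libraries rescaled, centred or quantile normalised, Btg2 lay past 2-fold in both strains.

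Ccng1 was at 27.5 FPKM in BDF1 and 31.5 in DBA/2 complexes, its highest levels in any library, with log2 differences of 0.80 and 0.99. Mdm2, at 26.5 and 28.3 FPKM, was above all cumulus libraries at 2 months (0.39 and 0.48). Gadd45b was below them at 10.5 and 11.5 FPKM. Sesn2 (7.17 and 7.97 FPKM), Cdkn1a (7.02 and 10.0), Gadd45a (5.48 and 7.98) and Trp53 (99.3 and 71.0) had at least 1 complex within the 2-month range. Bbc3 was listed at 0 in both complexes, and Pmaip1 was at 0.326 FPKM in BDF1 and listed at 0 in DBA/2.

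Likeness between genes was measured as the root mean square difference of log2(FPKM + 1), each gene centred on its own mean, over the 10 libraries and among 2172 genes with a mean of at least 5 FPKM and an SD of at least 0.5. The 4 nearest to Cdkn1a were Rnd3 (0.38), Gadd45a (0.50), Ptgs2 (0.52) and Relb (0.54). Rnd3 had 17.2, 4.92 and 30.3 FPKM in replicates 1, 2 and 3 at 10 months and at most 2.91 in every other library. Nearest to Btg2 were Gadd45b (0.37), Rhob (0.39), Nfkbia (0.45) and Dnajb1 (0.45), and nearest to Gadd45b were Dnajb1 (0.27), Nfkbia (0.29), Rhob (0.32) and Ier5 (0.33), so 3 genes were shared. Nearest to Sesn2 were Mical1 (0.26), Cars (0.35), Lmo4 (0.37) and Mthfd2 (0.39), each with its highest value in replicate 1 at 10 months. Mical1 was at 27.9 FPKM there and at most 7.40 elsewhere. These are descriptions over 10 libraries that share 5 groups, and the profiles of Cdkn1a, Btg2 and Sesn2 each had their nearest genes in a different set.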

How the data were processed

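RNA sequencing values were taken from 1 table of 10 libraries, grouped by the labels. The unit deposited by the authors is FPKM. The submitters' processing notes name TopHat2 2.1.0, Cufflinks 2.1.0 and the genome build mm9. The sources used here give no annotation, strandedness or depth. Cufflinks estimates do not keep whole reads, so no interval for counting error is given.

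All differences are of log2(FPKM + 1), where the pseudocount shrinks those of genes with low values. Genes with a mean of at least 1 FPKM over the 8 C57BL/6 libraries (12412 genes) were fitted together, with 1 mean for each group and 5 residual degrees of freedom, in limma 3.58.1 (R 4.3.3) with an intensity trend. Tests were two-sided with Benjamini-Hochberg adjustment over all genes and a threshold of 0.05. On simulated data of 12412 genes, the age comparison recovered 49% of 100 genes set to differ by 1 (log2) and 91% of 100 set to differ by 2. The simulated noise was independent between genes and of equal spread in all groups. The real spread was not equal for every gene. Against the 2-month mean, Cdkn1a lay at 1.27 to 3.41 (log2) at 10 months and at -0.28 to 0.24 at 2 months. These shares therefore cannot be taken as those of the real age comparison. Complexes were filtered at a mean of 1 FPKM over their 2 libraries and the 3 of cumulus cells at 2 months.

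The 10 genes and all lists were chosen with earlier results of these data known. By the rule for named genes, all 10 are named, and from each list and comparison up to 4 genes with the smallest p. For Cdkn1a, Btg2, Gadd45b and Sesn2 the 4 most alike genes are named, with Mir, Snor, Rik and Gm symbols left out. Not all of these are reported. The promoter display and motifs were chosen after member values were known. Genes named for the order of their 10-month replicates were picked after their values were seen. Overlapping genes were read from the GENCODE annotation of another build. Alternatives changed the pseudocount, the filter, the scaling, the model and the libraries.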

Additional observations from a re-analysis of the deposited data

How the results depend on the processing

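Depth is unknown, so the error of low values is too. With a pseudocount of 0.1, no filter, a filter at 5 FPKM, 3 scalings or the replicate block, 0 genes were called with age, and 3 members were called between mural and cumulus cells at 2 months. Library weights called 69, 5425 and 3793 genes in the 3 comparisons (age, mural against 2 months, mural against 10 months), with 2 members for age, 3 for mural against 2 months and 8 for mural against 10 months. Quantile normalisation called 7 members there. The fit of 2 groups alone called 460 genes and 3 members for mural against 10 months. For the complexes a filter at 5 FPKM left 1032 genes past 2-fold, and 1 member was past it without a filter (Bbc3), under rescaling, under quantile normalisation and under centring on the median (Btg2 in each). The cause of these shifts was not tested.

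Leaving out 1 library gave 0 to 280 genes and 0 to 2 members for age, 96 to 3251 genes and 0 to 3 members for mural against 2 months, and 27 to 2667 genes and 0 to 6 members for mural against 10 months. For the complexes it gave 1440 to 1781 genes and 0 to 1 members. Over the members and the settings that kept all libraries, 77 of 80 age values kept direction and side of the threshold, 75 of 80 for mural against 2 months and 70 of 80 for mural against 10 months.

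Signs turned only for values that did not pass. For mural against 2 months these were Ccng1 (0.10) and Sesn2 (0.13) under rescaling, Sesn2 when centred on the median (0.00785), and Sesn2 (0.083) and Bbc3 (0.19) with library weights. In that comparison leaving out 1 library gave -0.37 to 0.18 for Ccng1, -0.29 to 0.18 for Sesn2, -0.41 to 0.080 for Bbc3 and -0.72 to 0.062 for Cdkn1a. Ccng1 turned with library weights for age (-0.022), and against 10 months it ranged from -0.55 to 0.00019 (without mural replicate 1).

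No label says that equal replicate numbers pair the libraries. Same-numbered cumulus libraries of the 2 ages deviated from their group means with correlations of 0.006, 0.118 and 0.147 across genes. Mural replicate 2 gave 0.214 with cumulus replicate 2 at 2 months and -0.052 with that at 10 months. With so few libraries per group, these values cannot decide whether libraries were paired. With the replicate block, 0, 3361 and 2428 genes and 0, 3 and 5 members were called, and Gadd45a did not pass for mural against 10 months (adjusted p = 0.0504 by limma). Not every library correlated best with its own number.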

Other observations

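Btg3, a relative of Btg2 with an antiproliferative role, was at 6.35 and 6.21 FPKM in replicates 2 and 3 of cumulus cells at 10 months and at most 0.0104 FPKM in each of the other 8 libraries, where it was never listed at exactly 0. Trib3, a pseudokinase induced by ATF4, was at 29.8 FPKM in replicate 1 at 10 months and at most 2.095 in each of the other 9 libraries, and Asns, the asparagine synthetase of the same response, was at 67.9 FPKM there and at most 27.7 elsewhere. The survival gene Bcl2l1 was at 58.9 and 63.1 FPKM in the complexes and at 14.3 to 31.9 in the other libraries. Chek1 was at 34.5 and 41.3 FPKM in the complexes and at most 20.002 in the others. These genes were picked after their values were seen.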
